A study of Mus musculus with 4 samples.

Results

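The 10 genes described here make up the class I antigen presentation pathway: the class I heavy chains H2-K1 and H2-D1, the light chain B2m, the peptide transporter and loading genes Tap1, Tap2 and Tapbp, the inducible proteasome subunits Psmb8, Psmb9 and Psmb10, and the transcriptional regulator Nlrc5. They were taken by symbol, and all 10 were found among the 31253 genes of the count matrices. Their RNA was followed in single cells of mouse CT26 tumours and of tumour-draining lymph nodes (TDLN), CT26 being a colon carcinoma line of BALB/c origin. The 4 groups, with 1 library each from female mice aged 4 to 8 weeks, were NanoCa tumour, mock tumour, NanoCa TDLN and mock TDLN, and 4 values in a row follow that order. NanoCa is, per the series title, a lipid nanoparticle with a calcium crystal intended for immunotherapy through interferon beta. The mock libraries were tagged as untreated. The sources used here do not give dose, time after treatment, mouse strain, site of the graft or number of mice per library. The treatment protocol field named NanoCa for all 4 libraries, against the titles and treatment tags, so every NanoCa to mock ratio below rests on the titles and tags. With 1 library per group there is no replicate and no test, and each interval covers counting error alone (95%).

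Class I molecules carry short peptides from the inside of a cell to its surface, where CD8 T cells read them. The proteasome cuts the peptides, the Tap1 and Tap2 pair pumps them into the endoplasmic reticulum, and Tapbp (tapasin) bridges the transporter to the heavy chain until a peptide is bound. Interferon gamma, a cytokine of T and NK cells, is known to raise the whole pathway, in part through Irf1 and Nlrc5, and to exchange the constitutive catalytic subunits of the proteasome for the inducible ones. Tumour cells that present little class I are known to be poor targets of CD8 T cells.

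The bases ahead of 5 transcription starts are shown first, because these genes are known to share control elements. The sequences are those of RefSeq on GRCm38.p6, which held 8 of the 10 genes (Tap2 and Nlrc5 had no entry). The windows of Tapbp, Psmb8 and Psmb10, genes that differed between libraries in the same direction, were searched as well and are not printed. H2-K1 is at chr17:34000348-34000597 (minus strand), H2-D1 at chr17:35262844-35263093 (plus), B2m at chr2:122147437-122147686 (plus), and the stretch between the opposite starts of Tap1 and Psmb9 at chr17:34187331-34187555 (plus, read towards Tap1). Each of the first 3 is the 250 bases before the start, 5′ to 3′. Capitals mark the letters GGGATTCCC (NF-kB site of class I enhancer A), TGACG (core of the X2 box, a cAMP response core), ATTGG (core of the Y box), GAAANNGAA (interferon-stimulated response element core) or TTCNNNGAA (gamma-activated site), searched on both strands.
H2-K1: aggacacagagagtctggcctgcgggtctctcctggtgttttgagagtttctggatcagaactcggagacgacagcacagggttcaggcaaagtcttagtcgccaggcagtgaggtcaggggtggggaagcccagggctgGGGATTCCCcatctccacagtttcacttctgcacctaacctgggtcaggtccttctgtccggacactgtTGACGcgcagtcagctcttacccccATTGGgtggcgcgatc
H2-D1: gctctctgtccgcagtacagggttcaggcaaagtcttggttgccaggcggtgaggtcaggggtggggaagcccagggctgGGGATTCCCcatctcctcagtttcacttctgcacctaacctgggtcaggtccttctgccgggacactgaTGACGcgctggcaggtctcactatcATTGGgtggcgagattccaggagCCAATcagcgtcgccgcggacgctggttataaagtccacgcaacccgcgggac
B2m: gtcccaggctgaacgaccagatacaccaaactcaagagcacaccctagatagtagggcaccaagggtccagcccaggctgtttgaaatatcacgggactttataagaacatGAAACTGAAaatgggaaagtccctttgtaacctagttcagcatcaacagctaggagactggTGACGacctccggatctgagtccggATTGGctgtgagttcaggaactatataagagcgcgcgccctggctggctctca
Tap1 and Psmb9: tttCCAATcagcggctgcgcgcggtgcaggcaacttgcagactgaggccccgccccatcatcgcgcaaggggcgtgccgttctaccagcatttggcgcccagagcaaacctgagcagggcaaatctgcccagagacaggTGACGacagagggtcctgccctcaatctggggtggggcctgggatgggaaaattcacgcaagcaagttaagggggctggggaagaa

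GGGATTCCC stood in the windows of H2-K1 and H2-D1, against 0.302% of all 32817 promoter windows of 250 bases. TGACG stood in 5 of the 8 windows (17.7% of all windows) and ATTGG in 6 of 8 (33.8%). The windows of Tap1 and Psmb9 overlap, and their TGACG and ATTGG are the same sites, counted for both genes. Those of H2-K1 and H2-D1 are much alike in sequence, so these counts are not of independent matches. In H2-K1, H2-D1 and B2m the 2 cores lay on the same strand with exactly 20 bases between them, an arrangement found in 30 of all windows (0.0914%), that of the class I gene H2-M3 among them. The spacing was looked for after these sequences had been seen. GAAANNGAA was matched in 1 of the 8 windows (B2m, 7.12% of all windows) and TTCNNNGAA in 1 of 8 (Psmb8, 7.01%). Of the windows not printed, that of Tapbp held only ATTGG, that of Psmb8 only TTCNNNGAA, and that of Psmb10 none of these letters. Only these exact letters were searched, and an interferon element with other letters or another spacing would go unmarked. The lack of a match in H2-K1 and H2-D1 therefore does not show that their windows hold no such element. A match is a run of letters and not a measured binding site, and the sequence is that of the reference mouse, whose class I alleles differ from those of BALB/c.

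Cells were assigned by 2 genes. Rhox5, a homeobox gene of the reproductive tract that many tumour lines express, was required at 2 or more UMIs (unique molecular identifiers, that is, counted RNA molecules) with no UMI of Ptprc, the gene of the leukocyte antigen CD45. These Rhox5+ Ptprc- cells are called Rhox5+ cells. They made up 5832 of 11215 kept barcodes in tumour NanoCa (52.0%), 4656 of 9281 in tumour mock (50.2%), 229 of 11013 in TDLN NanoCa (2.08%) and 805 of 10268 in TDLN mock (7.84%), although the labels call the sorted cells immune cells. Immune cells (1 or more UMIs of Ptprc, at most 1 of Rhox5) numbered 1947, 1975, 9442 and 7562. Near the cut, 573, 399, 17 and 23 Rhox5+ cells had exactly 2 Rhox5 UMIs, and 837, 668, 81 and 147 barcodes without Ptprc had exactly 1 and were left out. Barcodes with 2 or more Rhox5 UMIs and a Ptprc UMI (134 to 508 per library) and barcodes meeting neither rule (1208 to 2928) were not compared.

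A carcinoma identity of the Rhox5+ cells was borne out only in part by its markers. Krt18, a keratin of simple epithelia, was at 39.4, 22.7, 59.5 and 26.1 CPM (UMIs of a gene after scaling the UMIs of the class to 1e+06) in the 4 libraries, against 3.30 to 18.6 in immune cells. Krt8, its partner, was at 14.1, 2.29, 29.2 and 0.70 CPM, and in TDLN mock it was lower than in immune cells (9.65). Epcam was at 0 in tumour mock and TDLN NanoCa and at most at 0.25 CPM in the other libraries. Cldn4, a tight junction gene, was at 0 in the same 2 libraries and at most at 0.03 CPM in the others. The 4 genes summed to 53.5, 25, 88.7 and 27.0 CPM in Rhox5+ cells against 10.9, 6.14, 8.85 and 40.7 CPM in immune cells, so that in TDLN mock the sum was higher in immune cells. The 6 fibroblast genes summed to 487 to 764 CPM in Rhox5+ cells and to 176 to 666 CPM in immune cells. The 8 pan-immune genes summed to 32.8 to 56.9 CPM in Rhox5+ cells, or 0.514% to 0.963% of the immune level. Rhox5 in immune cells stood at 11.1% and 10.6% of the Rhox5+ level in the tumour libraries and at 2.11% and 3.72% in TDLN. The part of this RNA of the other class was taken up by a subtraction given under the dependence on processing. Between any 2 libraries 120 to 179 kept barcodes were shared, and leaving out the 858 barcodes found in more than 1 library moved no count of genes below.

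Of the class I chains, both heavy chains and the light chain stood highest in mock TDLN among Rhox5+ cells. The H2-K1 heavy chain (ENSMUSG00000061232) was at 1165 CPM (1159 to 1171) in Rhox5+ cells of tumour NanoCa, 1509 (1502 to 1516) in tumour mock, 1339 (1319 to 1358) in TDLN NanoCa and 2548 (2534 to 2563) in TDLN mock. TDLN mock stood far above the other 3 libraries, and the NanoCa library was the lower one in each tissue. In immune cells H2-K1 was at 2401, 2614, 3286 and 3130 CPM, so that the TDLN mock value of Rhox5+ cells lay within the range of the immune values and the other 3 lay below it. The H2-D1 heavy chain (ENSMUSG00000073411) repeated this order, with 1036, 1307, 1153 and 1964 CPM in Rhox5+ cells. Its immune levels were 2044, 2225, 2585 and 2324 CPM. H2-K1 and H2-D1 share long stretches of sequence with each other and with the H2-Q genes, so how their reads were divided is uncertain. B2m (ENSMUSG00000060802), the light chain that every class I molecule needs, had the narrowest spread of the 10 genes, with 831, 1131, 985 and 1437 CPM in Rhox5+ cells. In immune cells it was at 1440, 1641, 1456 and 1485 CPM. H2-K1 held 52.9%, 53.6%, 53.7% and 56.5% of the heavy chain UMIs of H2-K1 and H2-D1 in Rhox5+ cells, against 54.0%, 54.0%, 56.0% and 57.4% in immune cells. The balance of the heavy chains thus moved by a few percentage points, far less than their levels did.

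**Figure D1:**
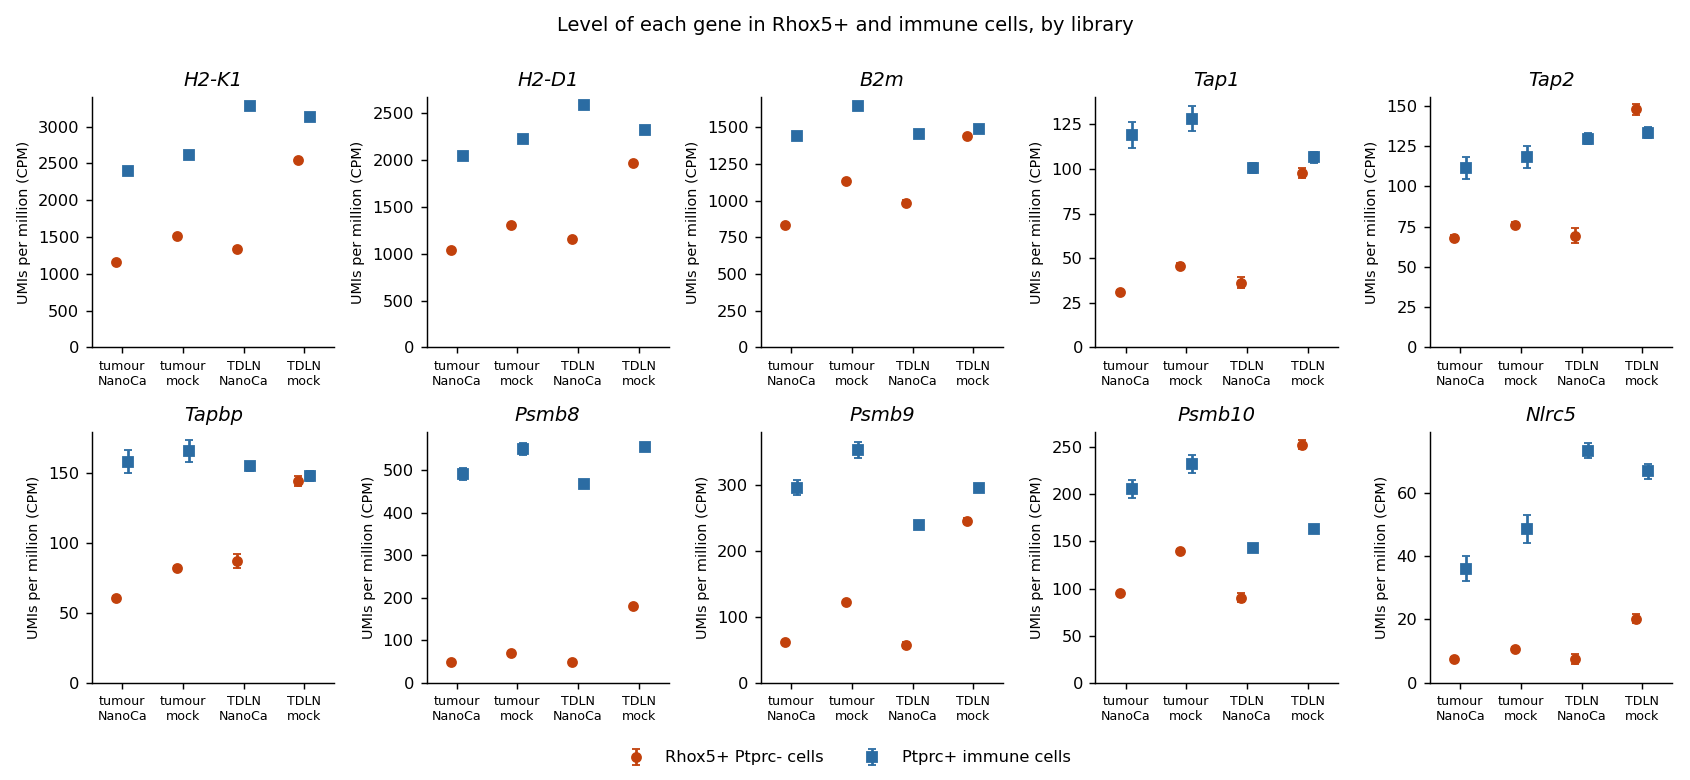
Levels of the 10 genes in CPM (y axis, from 0) by library (x axis) in Rhox5+ Ptprc- cells (circles) and Ptprc+ immune cells (squares). Bars are exact Poisson 95% intervals, which cover counting error alone and are often smaller than the symbol. Rhox5+ cells of TDLN mock are highest of the 4 Rhox5+ values for all 10 genes, as for H2-K1 at 2548 CPM.

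The transporter and loading genes were likewise highest in TDLN mock among Rhox5+ cells. Tap1 (ENSMUSG00000037321) was at 31.1 CPM (30.2 to 32.1) in Rhox5+ cells of tumour NanoCa, 45.8 (44.6 to 47.1) in tumour mock, 36.3 (33.2 to 39.7) in TDLN NanoCa and 97.8 (94.9 to 100.8) in TDLN mock. Only the TDLN mock value approached immune cells, which were at 119, 128, 101 and 107 CPM. Tap2 (ENSMUSG00000024339), the partner chain of the transporter, was at 68.2, 76.3, 69.4 and 148 CPM. Its first 3 values lay close together, while TDLN mock was above all 4 values of the pooled immune cells (111, 118, 130 and 133 CPM). By lineage in TDLN mock, dendritic cells (185 CPM), NK cells (176) and monocytes or macrophages (170) were higher for Tap2. T cells (141) and B cells (95.9) were lower. Tapbp (ENSMUSG00000024308) was at 60.3, 81.9, 87.3 and 144 CPM, against 158, 165, 155 and 148 CPM in immune cells. For Tapbp, TDLN NanoCa lay above tumour mock, unlike the other 2 loading genes.

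The inducible proteasome subunits were also highest in TDLN mock among Rhox5+ cells. Psmb8 (ENSMUSG00000024338), the inducible counterpart of Psmb5, was at 48.6 CPM in tumour NanoCa, 70.7 in tumour mock, 48.6 in TDLN NanoCa and 179 in TDLN mock. All 4 values were far below those of immune cells (491, 549, 468 and 554 CPM). Psmb9 (ENSMUSG00000096727), the counterpart of Psmb6, was at 62.2, 122, 56.9 and 245 CPM, and both NanoCa libraries lay at about the same low level. In immune cells it was at 296, 352, 239 and 295 CPM. Psmb10 (ENSMUSG00000031897), the counterpart of Psmb7, was at 94.9, 140.3, 90.3 and 253 CPM. Its TDLN mock value exceeded those of the pooled immune cells (206, 232, 143 and 163 CPM), but not those of every lineage. In TDLN mock, monocytes or macrophages (392 CPM), dendritic cells (282) and NK cells (273) were higher, and T and B cells (141 each) lower. Nlrc5 (ENSMUSG00000074151), the class I transactivator, had the fewest UMIs, with 7.49 CPM (7.03 to 7.97), 10.6 (10.0 to 11.2), 7.42 (6.05 to 9.02) and 20.2 (18.9 to 21.5) in Rhox5+ cells. It was at 35.8, 48.4, 73.2 and 66.7 CPM in immune cells, above every Rhox5+ value.

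The share of each catalytic pair taken by the inducible subunit sets these genes against a partner in the same cells and does not depend on the scaling of the library. Psmb8 held 12.2%, 18.4%, 13% and 34.6% of the UMIs of Psmb8 and Psmb5 in Rhox5+ cells, and 67.6% to 73.3% in immune cells. Psmb9 held 25.2%, 41.3%, 23.6% and 56.0% of its pair with Psmb6, against 53.6% to 61.1% in immune cells. Psmb10 held 53.4%, 61.2%, 46.1% and 73.9% of its pair with Psmb7, against 70.5% to 74.0%. In each pair the NanoCa share was below the mock share in both tissues in Rhox5+ cells, with Clopper-Pearson intervals that did not meet. The same held for each pair in immune cells of the tumour. There NanoCa and mock were at 67.6% and 71.6% for Psmb8, 53.6% and 60.3% for Psmb9, and 70.5% and 74.0% for Psmb10. In immune cells of TDLN the intervals were apart for Psmb9 (58.6% and 61.1%) and met for Psmb8 and Psmb10. The constitutive partners themselves differed little: in Rhox5+ cells the log2 ratio of NanoCa over mock was 0.15 in the tumour and -0.06 in TDLN for Psmb5, 0.09 and -0.07 for Psmb6, and -0.11 and 0.24 for Psmb7.

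**Figure D2:**
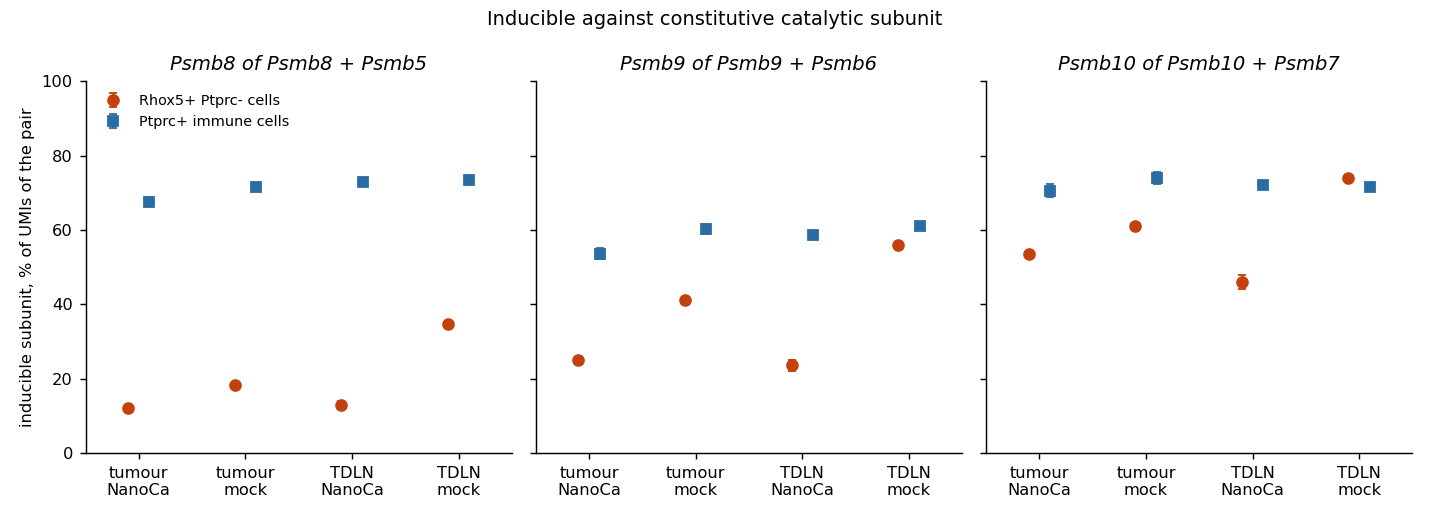
Share (%) of the UMIs of each catalytic pair held by the inducible subunit (y axis, 0 to 100) by library (x axis), in Rhox5+ cells (circles) and immune cells (squares), with Clopper-Pearson 95% intervals for counting error. For Psmb8 the Rhox5+ values (12.2% to 34.6%) lie below all immune values, while for Psmb10 the TDLN mock value (73.9%) lies within them.

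Set as ratios, the 10 genes were lower in NanoCa than in mock Rhox5+ cells in both tissues. In the tumour all 10 log2 ratios were below 0, from -0.97 (-1.01 to -0.93) for Psmb9 to -0.16 (-0.20 to -0.12) for Tap2, with a median of -0.47. The median over all 13841 genes tested was 0.033. Psmb9 alone was at least 1.5-fold lower with at least 50 UMIs, 1 of 10, where 3.32% of all genes were that much lower and 8.29% that much higher. Tap1 (-0.56), Psmb10 (-0.56) and Psmb8 (-0.54) stopped just short of that fold. With median-of-ratios scaling, or with cells of 20000 to 80000 UMIs only, the tumour count was 3 of 10. In TDLN 9 of 10 were at least 1.5-fold lower, where 8.35% of all genes were that much lower and 5.94% higher. The median was -1.26, against 0.028 over all genes. Psmb9 came to -2.11 (-2.21 to -2.0), or 4.31-fold lower, and Psmb8 to -1.88 (-2.0 to -1.77). Psmb10 (-1.48), Nlrc5 (-1.44, -1.75 to -1.14) and Tap1 (-1.43) followed, then Tap2 (-1.09), H2-K1 (-0.93), H2-D1 (-0.77) and Tapbp (-0.72). B2m, at -0.54 (-0.57 to -0.52), was the member short of the fold. By role, the median in TDLN was -1.88 for the proteasome subunits, -1.09 for the loading genes and -0.77 for the class I chains. The order was the same in the tumour, at -0.56, -0.44 and -0.37. For all 10 genes the TDLN interval lay wholly below the tumour interval with all UMIs used. With cells thinned to 2000 UMIs that order did not hold for Tapbp, at -0.585 in the tumour and -0.45 in TDLN. None of the 10 changed sign under total-UMI or median-of-ratios scaling.

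Depth and cell number moved with these groups. Median UMIs per Rhox5+ cell were 22481 and 24964 in tumour NanoCa and mock, and 58617 and 55603 in TDLN NanoCa and mock, and TDLN NanoCa rested on 229 cells. With every cell thinned to 2000 UMIs, 7 of 10 genes were still at least 1.5-fold lower in TDLN. With cells of 20000 to 80000 UMIs only (123 and 632 cells), 9 of 10 were.

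**Figure D3:**
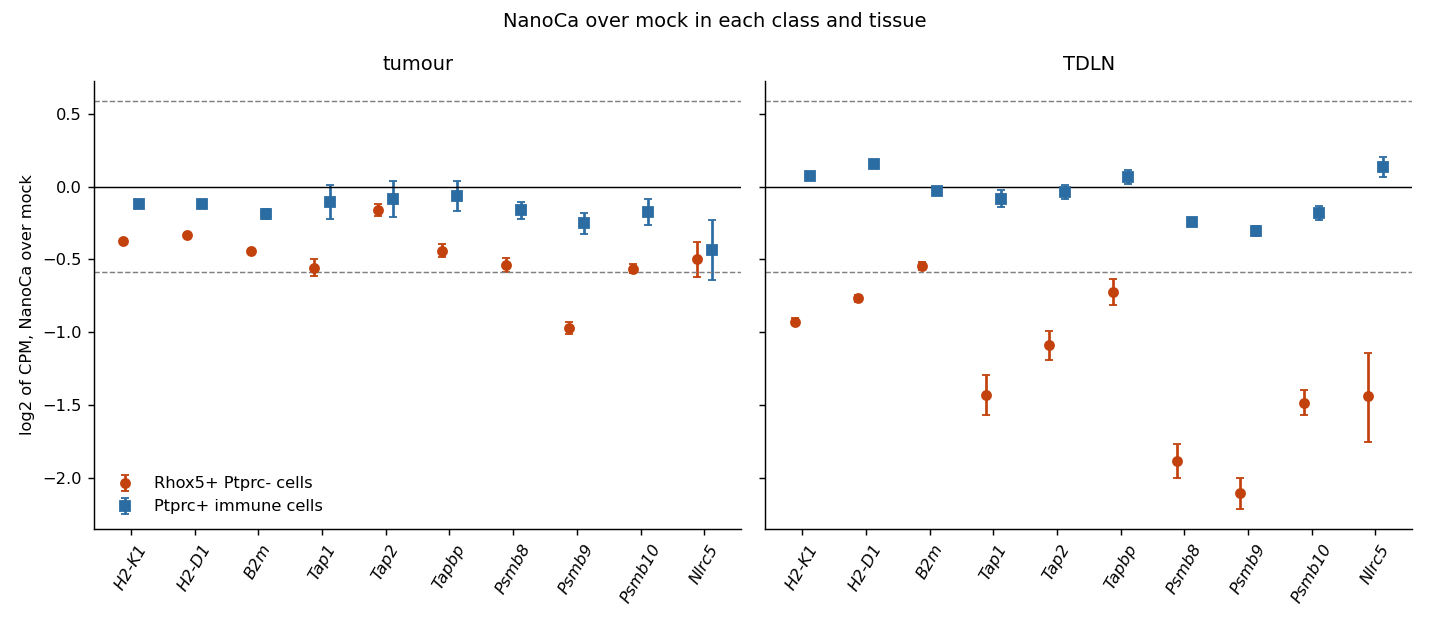
Log2 ratio of CPM, NanoCa over mock (y axis), of each gene (x axis) in the tumour (left) and TDLN (right), for Rhox5+ cells (circles) and immune cells (squares), with exact conditional binomial 95% intervals for counting error. Dashed lines mark 1.5-fold; 9 Rhox5+ values in TDLN and 1 in the tumour lie below the lower line, and no immune value lies outside the lines.

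Immune cells of the same libraries showed small ratios. In the tumour 0 of 10 genes were 1.5-fold lower (3.6% of all genes) and 0 higher (7.26%), with a median of -0.14, from -0.44 for Nlrc5 to -0.07 for Tapbp. In TDLN 0 of 10 were lower (13.3% of all genes) and 0 higher (3.41%), with a median of -0.03, from -0.30 for Psmb9 to 0.15 for H2-D1. There the 3 proteasome subunits and Tap1 were below 0, while H2-K1, H2-D1, Tapbp and Nlrc5 were above 0; B2m and Tap2, slightly below 0, turned positive under median-of-ratios scaling. In TDLN the Rhox5+ interval lay below the immune interval for 10 of 10 genes. In the tumour it did for 8 of 10, all but Tap2 (-0.16 against -0.09) and Nlrc5 (-0.50 against -0.44). NanoCa over mock was not tested between classes, which would need replicate libraries.

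Splitting the immune cells by lineage markers left most members within 1.5-fold. Of 10 genes, 0 were lower in T cells of the tumour (4.98% of all genes), 0 in monocytes or macrophages of the tumour (3.51%), 0 in T cells of TDLN (10.9%), 0 in B cells of TDLN (10.1%) and 0 in dendritic cells of TDLN (6.43%). Of the 9 genes with enough UMIs in tumour B cells, 0 were lower (6.25%) and 1 higher (9.8%), Tap1 with 77.8 against 51.7 CPM, whose interval included equal levels. In dendritic cells of TDLN 1 of 10 was higher (6.46% of all genes): Nlrc5, with 130.5 CPM in NanoCa and 83.2 in mock (log2 0.65, 0.31 to 0.99). B cells of TDLN were the class in which the class I chains were higher in NanoCa, with 0.38 for H2-K1, 0.50 for H2-D1 and 0.22 for B2m, all under 1.5-fold. In the same B cells Psmb8, Psmb9 and Psmb10 were below 0, between -0.34 and -0.12.

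The contrast of Rhox5+ with immune cells depended on the library. Over all genes the median log2 ratio of Rhox5+ over immune cells was itself -0.26, -0.29, -0.38 and -0.36 in the 4 libraries, and the members are read against it. In tumour NanoCa 10 of 10 genes were at least 1.5-fold lower in Rhox5+ cells (38.8% of all genes), with a median of -1.25. In tumour mock 9 of 10 were lower (39.4%), all but B2m (-0.54), with a median of -0.90. With median-of-ratios scaling that count was 5. In TDLN NanoCa 9 of 10 were lower (45%), again all but B2m (-0.56), with a median of -1.23. In TDLN mock 2 of 10 were lower (43.9%), Psmb8 at -1.63 and Nlrc5 at -1.72, and 1 was higher (25.6%), Psmb10 at 0.63. The median there was -0.18, which is above the median of all genes, and H2-K1, H2-D1, B2m, Tap1, Tapbp and Psmb9 turned from below to above 0 under median-of-ratios scaling. Psmb8 and Nlrc5 were lower in Rhox5+ than in immune cells by more than 1.5-fold in all 4 libraries. Psmb8 spanned -3.33 to -1.63 and Nlrc5 -3.30 to -1.72.

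Between tissues, mock Rhox5+ cells of the tumour were lower than those of TDLN by at least 1.5-fold for 9 of 10 genes (12.3% of all genes), all but B2m at -0.35, with a median of -0.89. In the NanoCa libraries 0 of 10 were (10.4%), with a median of -0.09, the same as that of all genes. The 2 tissue comparisons share no library, but each uses the same libraries as the NanoCa to mock ratios above.

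Other genes of the pathway were taken from lists by function. Over all genes in Rhox5+ cells, 8.35% were at least 1.5-fold lower and 5.94% higher in NanoCa in TDLN. In the tumour 3.32% were lower and 8.29% higher. Of 7 nonclassical class I genes in the files, 7 were at least 1.5-fold lower in NanoCa Rhox5+ cells of TDLN, led by H2-T22 (-1.31), H2-Q4 (-1.05), H2-Q7 (-1.0) and H2-M3 (-0.98), and 2 in the tumour, H2-T23 (-0.87) and H2-Q6 (-0.61). Of 8 other loading and trimming genes 3 were lower in TDLN: Tapbpl, a tapasin-related peptide editor (-1.61), and Psme1 (-0.87) and Psme2 (-0.83), the inducible proteasome activator. In the tumour 0 of these 8 were. Of the 11 other core proteasome subunits, 0 were past the fold in either direction in either tissue, with medians of 0.00 and -0.04.

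Irf1, a transcription factor induced by interferon gamma, was at 65.5 CPM in Rhox5+ cells of tumour NanoCa, 111.1 in tumour mock, 41.4 in TDLN NanoCa and 157 in TDLN mock, for ratios of -0.76 and -1.92. Rela (-0.90), an NF-kB subunit, and Rfx5 (-0.66), which binds the X box, were past the fold in TDLN alone, and Rfxap was higher in NanoCa in the tumour (1.18). Of 4 genes of interferon gamma signalling, Jak2 alone was lower in TDLN (-0.98), where 8.35% of all genes were, and 0 were past the fold in the tumour. In immune cells Irf1 was lower in NanoCa in the tumour (-0.90) and at 0.10 in TDLN.

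A list of 15 genes known to be induced by interferon gamma and outside class I presentation was set beside the members and holds none of them. Neither interferon gamma nor interferon beta signalling was measured, and which signal lay behind the levels of these genes was not tested. Of 14 with enough UMIs in Rhox5+ cells, 14 were lower in NanoCa in TDLN, with a median of -2.69, and 12 were lower and 1 higher in the tumour, with a median of -1.09. In TDLN the largest ratios were those of Ido1, Gbp4 (-3.88), Gbp5 (-3.74) and Iigp1 (-3.49). Ido1, a tryptophan-degrading enzyme, had 0 UMIs in TDLN NanoCa against 9.81 CPM in mock, so its ratio of -5.48 is set by a floor of 3 counts in that library and is a bound. Cxcl9, a T cell chemokine, also had 0 UMIs there, and the median takes both genes at their bounds. In the tumour Ido1 (-1.93), Iigp1 (-1.57), Gbp4 (-1.53) and Gbp2 (-1.41) led, and Socs1, a feedback inhibitor, was higher (0.81). In immune cells 1 of 14 was lower and 1 higher in the tumour, where 3.6% and 7.26% of all genes were, and 3 of 15 were lower in TDLN, where 13.3% of all genes were. By lineage, 4 of 12 were lower in tumour T cells (4.98% of all genes) and 4 of 14 in tumour monocytes or macrophages (3.51%). In tumour B cells 0 of 3 were (6.25%). In TDLN 3 of 14 were lower in T cells (10.9%), 4 of 14 in B cells (10.1%) and 4 of 10 in dendritic cells (6.43%). In each tumour lineage and in TDLN B cells 1 gene was higher (5.2% to 9.8% of all genes). The list was chosen with earlier results of these data known and was not tested as a set.

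Per cell, the 10 genes together gave fewest UMIs in NanoCa tumour and most in mock TDLN. With each cell thinned to 2000 UMIs, the median was 6 UMIs per Rhox5+ cell in tumour NanoCa (10th to 90th percentile 2 to 14), 9 in tumour mock (3 to 18), 8 in TDLN NanoCa (3 to 16) and 14 in TDLN mock (7 to 25). Immune cells had medians of 14, 15, 17 and 17. Thinning left out 33, 16, 9 and 5 Rhox5+ cells and 570, 374, 578 and 386 immune cells, whose medians and shares rest on the deeper cells. No UMI of the 7 genes other than the class I chains was seen in 53.4%, 43.2%, 47.3% and 18.1% of thinned Rhox5+ cells, against 10.3% to 13.1% of immune cells. H2-K1 was seen in 85.6%, 90.4%, 90.5% and 97.8% of thinned Rhox5+ cells, and Psmb9 in 10.7%, 18.8%, 11.4% and 38.4%. Without thinning, H2-K1 was seen in 98.3% to 100% of Rhox5+ cells, and Psmb9 in 54.6%, 73.0%, 70.3% and 96.5%.

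**Figure D4:**
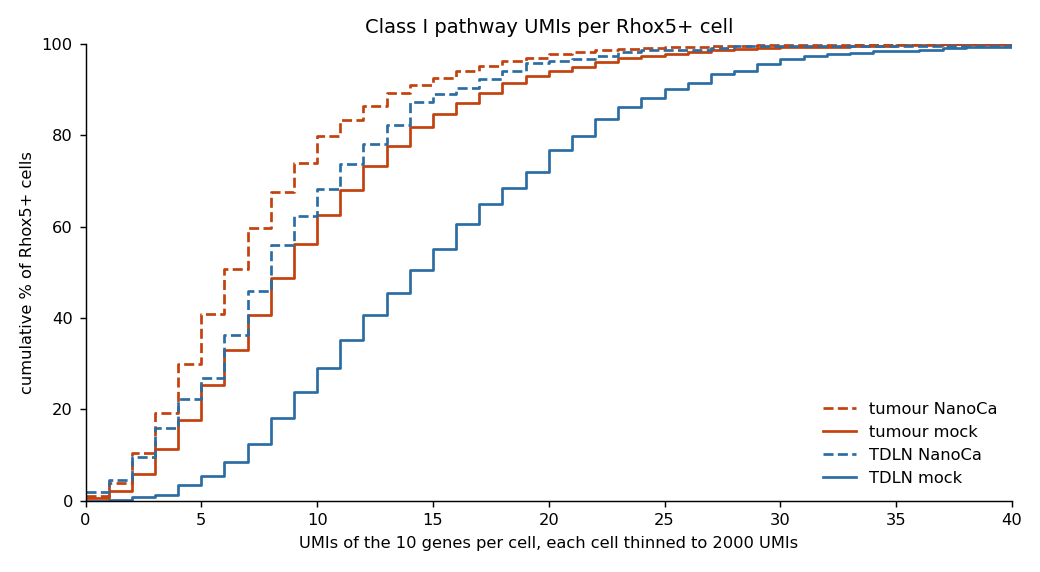
Cumulative share (%) of Rhox5+ cells (y axis) against the UMIs of the 10 genes per cell after thinning to 2000 UMIs (x axis), 1 line per library. The TDLN mock line (median 14) lies to the right of the other 3 (medians 6 to 9) over most of its length.

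Within a library, Rhox5+ cells with more RNA of the interferon gamma list had more RNA of the members. The same held for pooled immune cells, which mix lineages. It did not hold for NK cells of tumour mock, which averaged 21.0, 19.1 and 19.8 member UMIs with 0, 1 and 2 or more UMIs of that list. The other lineages with enough cells rose, some only slightly, as B cells of tumour mock from 8.87 with 0 to 9.09 with 1. In tumour NanoCa 71.6% of thinned Rhox5+ cells had 0 UMIs of that list and 10.6% had 2 or more. The shares were 60.7% and 20.7% in tumour mock, 60.5% and 15.5% in TDLN NanoCa, and 29.9% and 48.1% in TDLN mock. Cells with 0 UMIs of the list averaged 6.72, 8.28, 7.94 and 12.5 member UMIs, and cells with 2 or more averaged 11.5, 14.1, 11.5 and 17.7. TDLN mock cells with 0 UMIs of the list thus averaged more member UMIs than cells with 2 or more in either NanoCa library, and fewer than such cells of tumour mock. A cell thinned to 2000 UMIs can hold 0 of the list by sampling alone.

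The class I chains followed one another closely from cell to cell. Over Rhox5+ cells thinned to 10000 UMIs (5209, 4259, 211 and 794 cells), Spearman's rho of H2-K1 with H2-D1 was 0.65, 0.74, 0.76 and 0.74. The 3 pairs of class I chains had rho of at least 0.46, 0.58, 0.56 and 0.52. The other 42 pairs reached at most 0.29, 0.40, 0.30 and 0.45, and the median over all 45 pairs was 0.21, 0.29, 0.20 and 0.28. These are descriptions over cells that share a library and a depth, and the low counts of most members limit their rho. For H2-K1 and H2-D1, how reads that fit both genes were handled was not examined.

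Across 19 profiles (each class in each library with at least 100 cells), the mean centred log2 level of the 10 genes was lowest in Rhox5+ cells of tumour NanoCa (-1.42), TDLN NanoCa (-1.31) and tumour mock (-0.94). B cells came next (-0.62 to -0.32 over the 4 libraries), then Rhox5+ cells of TDLN mock (-0.09). Dendritic cells and monocytes or macrophages of TDLN mock were highest (0.93 and 0.92). For 5 of 10 genes the 3 lowest profiles were the Rhox5+ ones other than TDLN mock. For H2-D1 the lowest was tumour NanoCa B cells (955 CPM) and for B2m TDLN mock B cells (718 CPM). The highest H2-K1 level was that of NK cells of TDLN mock (5264 CPM), and the highest Psmb8 and Psmb9 levels were those of dendritic cells of TDLN mock (1045 and 636 CPM). Among 5775 other genes at 50 CPM or more in a profile, those most like the members' mean were Gbp8 (Pearson's r 0.97), Gm11127 (0.96), Gbp5 (0.94), Gbp4 (0.93) and Herc6 (0.93) over the 19 profiles, which share libraries. Gbp8, Gbp5 and Gbp4 are guanylate-binding proteins. Gbp5 and Gbp4 belong to the interferon gamma list above, which was not left out of this ranking.

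**Figure D5:**
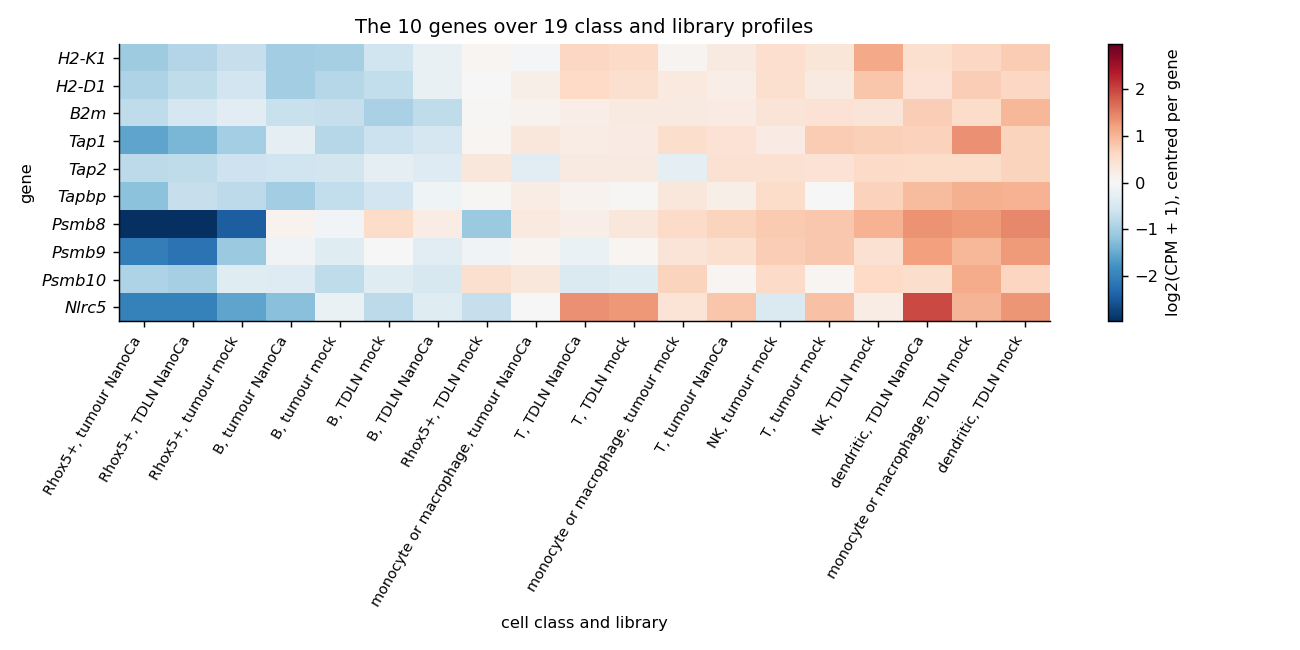
Level of each gene (rows) in 19 class and library profiles (columns, ordered by the mean over the 10 genes), as log2(CPM + 1) centred per gene (colour). The Rhox5+ profiles of tumour NanoCa, TDLN NanoCa and tumour mock stand at the low end (means of -1.42, -1.31 and -0.94), and dendritic cells of TDLN mock at the high end (0.93).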

How the data were processed

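Sorted cells of tumours and draining lymph nodes were profiled with 10x Genomics 3' v2 libraries, per the labels' protocols, after staining for CD45; the sources used here do not state the gate. The authors deposited matrices of raw UMI counts, made with Cell Ranger 7.1.0, per the file headers. Genome build and annotation: not given in the sources used here. The 4 libraries carry 1 batch date and hold 167924801, 148121144, 74909974 and 106579362 UMIs, in the report's order.

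Kept barcodes had 200 genes or more and no more than 10% mitochondrial UMIs. UMIs were summed per class and library and scaled to CPM of that sum. Rhox5+ cells had at least 2 Rhox5 UMIs and 0 of Ptprc; immune cells had at least 1 Ptprc UMI and at most 1 of Rhox5. Immune cells went to a lineage whose markers held at least 3 UMIs and at least 75% of the UMIs over 6 lists, and lineages with at least 100 cells in both libraries of a tissue were compared. Genes with at least 50 UMIs over both sums and a CPM ratio of at least 1.5 are called lower or higher. Doublets were left in, and their removal with Scrublet (scanpy 1.11.5) was an alternative. Levels carry exact Poisson, shares Clopper-Pearson and ratios exact conditional binomial 95% intervals; the ratio code was tested on simulated data. Named were all members, the constitutive catalytic subunits, Irf1, up to 4 genes per further list and comparison by size among those past the fold, and the 5 genes most like the members; 1 further item is not reported here. The members and lists were chosen with earlier results of these data known.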

Additional observations from a re-analysis of the deposited data

How the results depend on the processing

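Of 196 counts of genes recomputed under alternatives, 190 stayed within 1.5 times the value reported. In Rhox5+ cells of the tumour, NanoCa over mock, the count of genes at least 1.5-fold lower went from 1 to 3 with median-of-ratios scaling, to 2 with cells thinned to 2000 UMIs, to 2 with RNA of the other class subtracted, and to 3 with cells of 20000 to 80000 UMIs, an alternative chosen after seeing the data. For Rhox5+ over immune cells, the count lower in tumour mock went from 9 to 5 with median-of-ratios scaling, and the count higher in TDLN mock went from 1 to 0 when Rhox5+ cells were limited to at most 2 UMIs of the pan-immune list. The causes were not tested. The median of the 10 genes ranged over 13 alternatives from -0.52 to -0.44 (Rhox5+ cells, tumour, NanoCa over mock) and from -1.29 to -0.87 (TDLN). It changed sign in 2 comparisons: it ranged from -0.21 to 0.12 for Rhox5+ over immune cells of TDLN mock, and from -0.054 to 0.01 for immune cells of TDLN, NanoCa over mock. Of the medians recomputed, 20 moved by more than the members' typical counting interval to either side and 78 did not. Of the 10 members, 6 changed sign under an alternative for Rhox5+ over immune cells of TDLN mock, and for NanoCa over mock 3 did in immune cells of the tumour and 2 in those of TDLN. In Rhox5+ cells, NanoCa over mock, none did in either tissue. Under thinning, Tap1 in the tumour came to -0.18. Tapbp came to -0.585 in the tumour and to -0.45 in TDLN, so its TDLN ratio was no longer the lower one. No paired analysis was possible because each group holds 1 library. For the same reason no library could be left out of a group, and treatment, library and any mouse effect cannot be told apart.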

Other observations

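Rfxap, a subunit of the RFX complex at class I and class II promoters, and Socs1, a feedback inhibitor of interferon signalling, were low in tumour mock in both classes. Rfxap was at 47.9, 21.1, 45.9 and 49.1 CPM in Rhox5+ cells of NanoCa tumour, mock tumour, NanoCa TDLN and mock TDLN, and at 39.6, 21.1, 44.4 and 45.0 CPM in immune cells. Socs1 was at 42.0, 24, 61.6 and 103.5 CPM in Rhox5+ cells and at 50.8, 28.0, 56.7 and 65.7 CPM in immune cells. Both genes thus differed between the tumour libraries in the direction opposite to that of the members, and by a similar amount in cells of either class. Ciita, the class II transactivator, was at 0.16, 0.18, 0.07 and 0.86 CPM in Rhox5+ cells and at 12.1 to 25.9 CPM in immune cells. H2-T23, the class I gene that presents leader peptides to NK cell receptors, stood lower in Rhox5+ than in immune cells in all 4 libraries, with 22.6, 41.3, 39.5 and 67.8 CPM against 323, 353, 430 and 406. These genes were picked out after their values were seen.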
